A study of Mus musculus with 7 samples.

Results

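Regional identity along the gut is set by a small group of transcription factors, and 9 of their genes were followed here in sorted Paneth cells (PCs) after tumour necrosis factor (TNF): Gata4, Gata5, Gata6, Pdx1, Cdx1, Cdx2, Onecut2, Onecut3 and Osr2. The members were selected on their counts in these libraries, with the TNF and PBS values known, and found by Ensembl identifier among the 55414 identifiers of the count table, and 8 of the 9 were among the 14329 genes that passed the filter on low counts. Onecut3 did not pass. PCs sit at the bottom of the crypts of the small intestine and release granules of antimicrobial proteins. They had been purified with a cell sorter from C57BL/6J mice, taken 15 h after an injection of TNF or, as the control, of phosphate-buffered saline (PBS). The 3 PBS and 4 TNF libraries each came from a different mouse, and no genetic change is named for either group. The dose, the sex and age of the mice, the sorting gate and the part of the small intestine were not given in the sources used here. Levels of the members could therefore not be set against a labelled region.

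GATA4 is a zinc finger factor of the proximal small intestine that is lacking in the distal ileum, and its loss in the jejunum is known to let ileal genes come on. GATA6 is present along the whole small intestine, and PDX1 is a homeodomain factor of the duodenum and pancreas. CDX1 and CDX2 are caudal-type homeodomain factors that hold the intestinal fate itself, against stomach and oesophagus, and are found along the whole intestine.

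Total counts ran from 15511455 to 19193721 per library. The label of the cells was checked against 9 PC markers, all of which were abundant in every library, with a summed level of 170000 to 275100 CPM (counts scaled to a library size of 1e6, with sizes corrected by TMM, the trimmed mean of M-values) after PBS and 171400 to 311900 CPM after TNF. Of the 9, 3 were called lower, 2 higher and 4 not called. The lower ones were Clps, Pnliprp2 and Habp2 (log2 fold changes of TNF over PBS -2.27 ± 0.43, -1.39 ± 0.14 and -1.26 ± 0.16, with SE) and the higher ones the matrix metalloproteinase gene Mmp7 (0.88 ± 0.21) and the defensin gene Defa22 (1.76 ± 0.33). Lyz1, the lysozyme of PC granules, was at 0.30 ± 0.32 and not called. PBS 2 stood apart in genes of villus enterocytes: it held 201 counts of Lct (lactase) against 1 and 17 in the other PBS libraries, and 123 counts of Cubn (cubilin) against 2 and 11. Without that library the log2 fold changes of the members were -2.89 for Gata4, -1.54 for Gata5, 0.11 for Gata6, -4.38 for Pdx1, -5.78 for Onecut2, 0.26 for Cdx1, 0.08 for Cdx2 and -0.96 for Osr2.

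After TNF, Gata4, Gata5, Pdx1, Onecut2 and Osr2 were lower in every TNF library than in any PBS library, while Gata6 and Cdx2 overlapped between the groups and Cdx1 lay slightly higher. The largest differences were those of Onecut2 and Pdx1, whose TNF means were 1.79% and 3.56% of the PBS means. Gata4 stood at 13.1%, Gata5 at 31.4% and Osr2 at 52.0% of PBS. In the edgeR fit over all genes, 5 of the 8 members tested were called lower and 0 higher at an adjusted p under 0.05, against 59.6% of all tested genes called in either direction, 30.1% called lower and 29.5% called higher. The members had been proposed with this contrast known, so their values are a description and are given without p-values. The lists of other genes below were also chosen with earlier results of these data known. Adjusted p-values printed for listed genes are therefore a description as well. A lower level in these bulk samples can come from fewer cells of a type or from less RNA per cell, and these cannot be told apart.

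**Figure D1:**
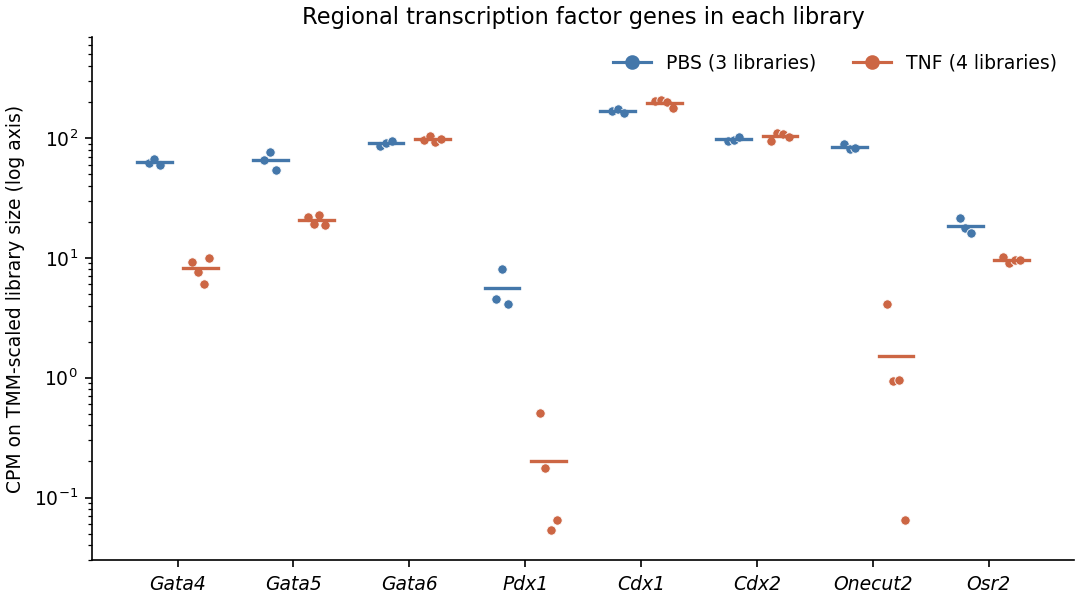
Level of 8 member genes in each library, in CPM on TMM-scaled library sizes (log axis), with 1 point per library (3 PBS in blue, 4 TNF in orange) and a bar at the group mean. Gata4, Gata5, Pdx1, Onecut2 and Osr2 separate downwards after TNF, the TNF points of Pdx1 and Onecut2 range over 9.41-fold and 62.4-fold, and Gata6 and Cdx2 overlap between the groups.

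Of the GATA factors, Gata4 (ENSMUSG00000021944, chromosome 14, 63436362 to 63509141 of GRCm39, minus strand) had 1007, 1312 and 1114 counts after PBS and 165, 130, 112 and 152 after TNF. On the CPM scale these were 62.2, 66.8 and 59.1 after PBS and 9.24, 7.66, 6.00 and 9.95 after TNF. The groups were far apart, with the highest TNF library at 15.9% of the PBS mean. Group means were 62.7 ± 3.88 CPM after PBS (SD, n = 3) and 8.21 ± 1.76 CPM after TNF (SD, n = 4), which is -2.94 ± 0.16 (SE) as a log2 fold change, or -2.89 without PBS 2.

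Gata5 (ENSMUSG00000015627, chromosome 2, 179966880 to 179976509 of GRCm39, minus strand), the third GATA factor of gut endoderm, had 1069, 1514 and 1011 counts after PBS and 389, 323, 423 and 287 after TNF. Its levels were 66.1, 77.1 and 53.6 CPM after PBS and 21.8, 19.04, 22.6 and 18.8 CPM after TNF. All TNF libraries lay close together, between 28.6% and 34.5% of the PBS mean, while PBS 2 was the highest PBS library. Gata5 had a log2 fold change of -1.67 ± 0.13 (SE), and of -1.54 without PBS 2.

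Gata6 (ENSMUSG00000005836, chromosome 18, 11051565 to 11086995 of GRCm39, plus strand) kept a like level in both groups. Its counts were 1386, 1778 and 1791 after PBS and 1711, 1750, 1728 and 1494 after TNF, and its levels 85.7, 90.5 and 94.97 CPM against 95.8, 103, 92.5 and 97.8 CPM. The highest PBS library lay within the TNF range. As a log2 fold change this was 0.11 ± 0.09 (SE) with TMM scaling and -0.07 when libraries were scaled by total counts alone, a scaling that moved the median of all genes by -0.16.

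Because each library carries all 3 GATA genes, their ratio within a library does not depend on scaling between libraries. The log2 ratio of Gata4 to Gata6 counts (0.5 added to each) was between -0.69 and -0.44 after PBS and between -3.94 and -3.29 after TNF, a difference of -3.06. For Gata5 to Gata6 the ratio went from a mean of -0.48 to -2.25, and for Gata4 to Gata5 from -0.05 to -1.34. Gata4 was thus lower after TNF relative to both of its relatives, and the TNF and PBS libraries did not overlap in any of these 3 ratios.

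Per kb of exon, the 3 GATA genes together went from 40.5 ± 3.97 CPM per kb after PBS (SD, n = 3) to 18.2 ± 0.293 after TNF (SD, n = 4). Gata6 made up 23.2%, 22.0% and 28.0% of that sum in the PBS libraries and 56.1%, 61.4%, 56.2% and 59.0% in the TNF libraries. Gata5 was the most abundant of the 3 after PBS, with 48.3% ± 4.13 of the sum, and held 33.9% ± 3.26 after TNF. The share of Gata4 was 27.3% ± 0.982 after PBS and 7.94% ± 1.67 after TNF. On this scale Gata6 was the leading GATA mRNA in every TNF library and Gata5 in every PBS library. If each gene was scaled by its longest transcript instead, the mean share of Gata6 was 35.0% after PBS and 70.6% after TNF, and Gata6 also led in PBS 3, with 39.3% against 33.9% for Gata5.

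**Figure D2:**
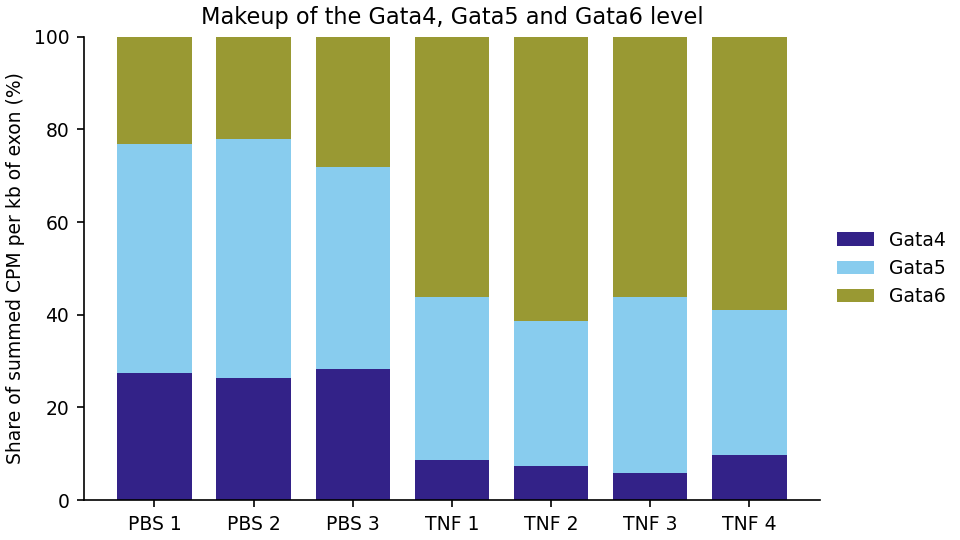
Makeup of the summed Gata4, Gata5 and Gata6 level in each of the 7 libraries, as stacked bars of the percentage of the summed CPM per kb of exon. Gata6 takes 22.0% to 28.0% of the bar in the PBS libraries and 56.1% to 61.4% in the TNF libraries, and Gata4 narrows from 27.3% to 7.94% on average.

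Among the other genes of the GATA family and its cofactors, Gata1 was at 0 counts in every library, and Gata2 and Gata3 were at 0 counts in every library but TNF 4, where they had 4 and 2. The cofactor gene Zfpm1 (FOG1, a zinc finger protein that binds GATA factors) was abundant and fell by 1.36 ± 0.11 on the log2 scale, with 161.5 ± 10.1 CPM after PBS and 62.9 ± 7.32 CPM after TNF (edgeR adjusted p = 1.949e-07). Its relative Zfpm2 had 0 counts throughout. The relatives of the other members, Onecut1, Osr1 and Cdx4, were also at 0 counts in all 7 libraries.

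Pdx1 and Cdx2 are neighbours on chromosome 5, 24.96 kb apart, and each is the other's nearest tested protein-coding gene on that side. Both belong to the ParaHox genes, homeobox genes related to the Hox clusters. Pdx1 (ENSMUSG00000029644, 147206769 to 147212658 of GRCm39, plus strand) had 74, 160 and 78 counts after PBS and 9, 3, 1 and 1 after TNF. Its levels were 4.57, 8.14 and 4.14 CPM against 0.504, 0.177, 0.0535 and 0.0654 CPM. The gene was thus low in resting PCs and close to the limit of counting after TNF, with TNF 1 above the other TNF libraries and PBS 2 above the other PBS libraries. The log2 fold change was -4.75 ± 0.57 (SE), -5.74 without TNF 1 and -4.38 without PBS 2.

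Cdx2 (ENSMUSG00000029646, 147237615 to 147244091 of GRCm39, minus strand) had 1524, 1878 and 1919 counts after PBS and 1680, 1868, 2035 and 1551 after TNF. The levels were 94.2, 95.6 and 101.8 CPM against 94.0, 110, 109 and 101.5 CPM, so that the lowest and the highest library were both TNF libraries. The fit gave a log2 fold change of 0.09 ± 0.10 (SE) with TMM scaling and -0.08 with total counts. The log2 ratio of Pdx1 to Cdx2 within a library lay between -4.61 and -3.55 after PBS and between -10.41 and -7.47 after TNF.

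The bases before the start of 3 members were in the RefSeq promoter table of GRCm38.p6, and they are shown for the neighbours Pdx1 and Cdx2, whose levels differed so unlike each other, and for Gata5. Each runs 5′ to 3′ over the 250 bases before the start and is written on the gene's own strand. Capitals mark the letters TAAT, the core that many homeodomain proteins bind, on either strand.
Pdx1, chr5:147269847-147270096, plus strand: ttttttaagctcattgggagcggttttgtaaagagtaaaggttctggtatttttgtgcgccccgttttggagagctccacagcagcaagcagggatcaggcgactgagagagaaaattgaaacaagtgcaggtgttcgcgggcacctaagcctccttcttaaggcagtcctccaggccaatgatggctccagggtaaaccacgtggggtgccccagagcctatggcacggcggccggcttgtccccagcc
Cdx2, chr5:147307250-147307499, minus strand: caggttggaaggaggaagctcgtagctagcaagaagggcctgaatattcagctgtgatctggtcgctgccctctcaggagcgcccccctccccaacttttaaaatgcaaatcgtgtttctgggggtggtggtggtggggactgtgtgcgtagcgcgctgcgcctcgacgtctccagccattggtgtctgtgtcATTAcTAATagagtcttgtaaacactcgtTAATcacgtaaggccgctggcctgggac
Gata5, chr2:180334680-180334929, minus strand: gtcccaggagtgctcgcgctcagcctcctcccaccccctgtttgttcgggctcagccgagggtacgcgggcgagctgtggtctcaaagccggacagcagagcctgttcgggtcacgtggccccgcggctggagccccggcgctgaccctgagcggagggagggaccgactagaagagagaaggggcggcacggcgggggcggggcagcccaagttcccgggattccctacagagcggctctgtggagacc
The Cdx2 stretch held 3 matches to TAAT, at 52 to 49 and 28 to 25 bases before the start on the gene's strand and at 57 to 54 on the other strand, and the other 2 stretches held none. TAAT was found, counting both strands, in 54.9% of the 32851 promoters of that length. The cores of GATA sites (the letters GATAA, held by 22.6% of all promoters), of CDX sites (TTTAT, 37.3%) and of ONECUT sites (ATTGAT, 6.72%) were searched on both strands as well and were in none of the 3 stretches. GC content was 54.8% for Pdx1, 55.2% for Cdx2 and 70.0% for Gata5, against a median of 52.4% over all promoters. No entry was found for Gata4, Gata6, Cdx1, Onecut2, Onecut3 or Osr2.

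Cdx1 (ENSMUSG00000024619, chromosome 18, 61151934 to 61169314 of GRCm39, minus strand) was the most abundant member. It had 2718, 3423 and 3032 counts after PBS and 3605, 3518, 3725 and 2734 after TNF. The levels were 168, 174 and 160.8 CPM against 202, 207, 199.5 and 179 CPM, and all TNF libraries lay above all PBS libraries, with TNF 4 nearest to them. The log2 fold change of 0.23 ± 0.10 (SE) was not called, and it was called at 0.26 without TNF 4. Groups that do not overlap were seen for 60.7% of all tested genes, 30.9% lower and 29.9% higher after TNF, and for 5 members lower and 1 higher. Cdx1 made up 66.4% ± 1.73 of the sum of Cdx1 and Cdx2 per kb after PBS (SD, n = 3) and 68.5% ± 1.82 after TNF (SD, n = 4), and the libraries of the groups overlapped in this share.

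Onecut2 (ENSMUSG00000045991, chromosome 18, 64473091 to 64534058 of GRCm39, plus strand) encodes a cut homeodomain factor known from liver, pancreas and duodenum. It had 1439, 1594 and 1568 counts after PBS and 73, 16, 18 and 1 after TNF. The PBS libraries were nearly even, at 88.9, 81.1 and 83.2 CPM (a range of 1.10-fold), while the TNF libraries, at 4.09, 0.943, 0.964 and 0.0654 CPM, ranged over 62.4-fold with TNF 1 the highest and TNF 4 the lowest. The log2 fold change was -5.76 ± 0.64 (SE), -6.94 without TNF 1 and -5.78 without PBS 2.

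TNF 1, in which Onecut2 stayed highest, still had only 4.84% of the PBS mean, and TNF 4 had 0.0775%. Relative to Cdx2 in the same library, the log2 ratio of Onecut2 ran from -0.29 to -0.08 after PBS and from -10.01 to -4.52 after TNF, a difference of -6.83 between the means. With 0.1 in place of 0.5 added to each count this difference was -6.96, and that of Pdx1 to Cdx2 was -5.34 in place of -5.07. Onecut3 (ENSMUSG00000045518, chromosome 10, 80330669 to 80353110 of GRCm39, plus strand), its relative, had 2 counts in PBS 3 and 0 in the other 6 libraries, so both groups were under the floor of 3 counts and no fold is given.

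**Figure D3:**
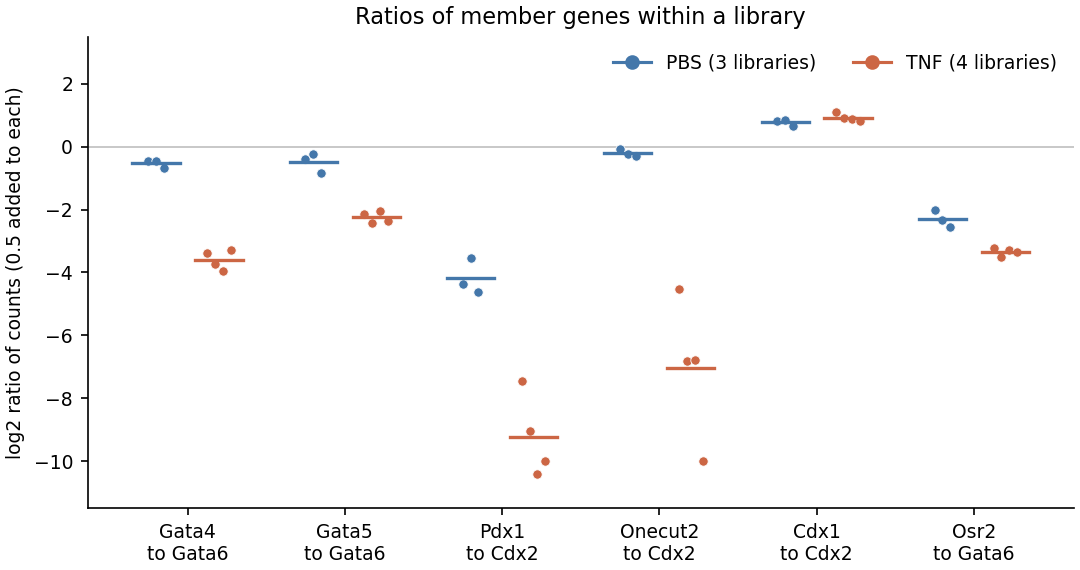
Log2 ratio of the counts of 2 members within each library, with 0.5 added to each count, for 6 pairs (1 point per library, bar at the group mean, 3 PBS in blue and 4 TNF in orange). Cdx1 to Cdx2 has a mean of 0.79 after PBS and 0.93 after TNF, whereas the TNF libraries of the other 5 pairs lie below all PBS libraries.

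Osr2 (ENSMUSG00000022330, chromosome 15, 35296196 to 35303673 of GRCm39, plus strand), a zinc finger factor of the odd-skipped family known from palate and limb development, had 345, 350 and 306 counts after PBS and 183, 154, 178 and 146 after TNF. Its levels were 21.3, 17.8 and 16.2 CPM against 10.2, 9.08, 9.53 and 9.55 CPM. The TNF libraries were nearly even, at 49.2% to 55.5% of the PBS mean. Its log2 fold change was -0.94 ± 0.15 (SE), the smallest among the 5 members called lower. Relative to Gata4 in the same library the log2 ratio of Osr2 went the other way, from a mean of -1.77 after PBS to 0.25 after TNF.

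Levels of the members were set in order per kb of exon. After PBS the order was Cdx1 (84.6 CPM per kb), Cdx2 (42.8), Gata5 (19.6), Gata4 (11.02), Gata6 (9.80), Onecut2 (5.2), Osr2 (2.73), Pdx1 (2.60) and Onecut3 (0.0074). The ranges over the PBS libraries of neighbours in that order did not overlap, except that Osr2 (2.40 to 3.16) lay within the range of Pdx1 (1.92 to 3.77). The place of Gata6 depended on the length used, since with the longest transcript it stood at 17.7 CPM per kb and above Gata4 at 13.5.

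After TNF the order was Cdx1 (99.3 CPM per kb), Cdx2 (45.6), Gata6 (10.6), Gata5 (6.16), Gata4 (1.44), Osr2 (1.42), Onecut2 (0.0933) and Pdx1 (0.0926), with Onecut3 at 0. Gata6 thus passed above Gata5, whose TNF range of 5.62 to 6.78 lay under the Gata6 range of 10.03 to 11.19. Gata4 (1.05 to 1.75) and Osr2 (1.34 to 1.52) did not differ beyond their spread, nor did Onecut2 and Pdx1.

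Of 17 other transcription factors of the intestinal epithelium, 16 were tested, and 6 were called lower and 5 higher. That is 68.75% called, against 59.6% of all tested genes. Their median log2 fold change was -0.02, against 0.0017 over all tested genes. Foxa2, a winged helix factor of endoderm, fell from 28.5 to 3.44 CPM (-3.04 ± 0.20), while its relative Foxa1 rose from 62.9 to 172 CPM (1.45 ± 0.13, edgeR adjusted p = 3.75e-07). Foxa3, the other Foxa gene of the list, fell from 192.4 to 68.2 CPM (-1.50 ± 0.13). Hnf4a and Hnf4g, nuclear receptors that drive enterocyte genes, fell by 1.53 ± 0.11 and 1.49 ± 0.17 on the log2 scale.

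The zinc finger gene Klf5 (1.11 ± 0.11) and the ETS factor gene Elf3 (0.98 ± 0.11) also rose. Nr1h4, which encodes the bile acid receptor FXR, rose by 0.98 ± 0.16, and Tcf7l2, the partner of beta-catenin in Wnt signalling, fell by 0.77 ± 0.12. Sox9, the crypt and PC factor, was at 0.35 ± 0.15 and Ehf at 0.21 ± 0.12, and neither was called in the edgeR fit over all libraries. Without PBS 2 both were called, at 0.46 and 0.33, and Sox9 was also called without TNF 1 (0.43), with no filter on low counts (0.35) and in DESeq2 (0.35). Sox2, a factor of stomach and oesophagus, had 0 counts in every library.

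Genes whose expression is known to follow the position along the small intestine were set beside the members. Of 12 proximal genes, 8 were tested, 5 were lower and 1 higher (median log2 fold change -1.75). That is 75.0% called, against 59.6% of all tested genes. The summed level of the list was 139.9 to 180.3 CPM after PBS and 33.9 to 44.3 CPM after TNF. Most of that sum was Cybrd1, the duodenal ferric reductase, at 105.8 to 143 CPM after PBS and 20.5 to 33.7 CPM after TNF. Its mean fell from 118.8 ± 20.9 to 26.0 ± 5.55 CPM (-2.20 ± 0.16, edgeR adjusted p = 1.277e-07). Cyp2c65, a cytochrome P450, fell by 2.66 ± 0.36. The number of proximal genes called went from 6 to 4 when PBS 2 or PBS 3 was left out.

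The incretin gene Gip, made by K cells of the proximal gut, had 336, 602 and 381 counts after PBS and 96, 0, 9 and 0 after TNF (-3.99 ± 1.18, edgeR adjusted p = 0.0303). That call was lost when PBS 1, PBS 2, PBS 3 or TNF 3 was left out, with log2 fold changes from -4.10 to -3.70, and the value was -7.03 without TNF 1. Apoa4, an apolipoprotein of villus enterocytes, had 17, 167 and 15 counts against 1 in all TNF libraries together, a ratio of 250.3 (95% exact binomial interval 44.4 to 9937, counting error only). Without PBS 2, which held 167 of the 199 PBS counts, that ratio was 62.8 (10.5 to 2558). Bco1, the enzyme that cleaves beta-carotene, rose by 1.16 ± 0.35 (edgeR adjusted p = 0.0116).

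Of 12 distal genes, 4 were tested, 0 were lower and 3 higher, which is 75.0% called, against 59.6% of all tested genes. The summed level of the list was 16.7 to 31.0 CPM after PBS and 62.4 to 70.1 CPM after TNF. Hoxb9 rose from 9.59 ± 1.96 to 44.6 ± 2.80 CPM (2.22 ± 0.15, edgeR adjusted p = 3.302e-08), and Hoxb8 by 1.70 ± 0.24. These homeobox genes mark posterior position in the embryo. The other 10 distal genes, summed apart after the data were seen, gave 2.78 to 13.7 CPM after PBS and 5.72 to 8.68 CPM after TNF, so that their sums overlapped. Slc51b, a subunit of the bile acid exporter of ileal enterocytes, had 3, 16 and 4 counts after PBS and 64, 73, 78 and 61 after TNF (3.26 ± 0.51, and 4.28 without PBS 2). Amn, the partner of cubilin, was at -0.91 ± 0.47 and was not called over all libraries, though it was without PBS 1 (-1.23) or without TNF 4 (-1.27).

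The distal genes with fewer counts did not all go one way. Slc10a2, the ileal bile acid importer, was at 0 counts in every PBS library and at 11, 5, 12 and 6 after TNF, at least 9.01-fold higher against a floor of 3 counts over the PBS group. Cubn (136 counts after PBS, 123 of them in PBS 2) and Slc51a (27 counts, 24 of them in PBS 2) were at 0 after TNF. Hoxa10 had 2, 4 and 1 counts after PBS and 0 in every TNF library. Fabp6, the ileal bile acid binding protein, had 39 counts after PBS, 33 of them in PBS 2, and 2 after TNF. With PBS 1 left out, 7 distal genes passed the filter and 6 were called, 4 higher and 2 lower.

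Cdx2 itself overlapped between the groups, and 8 of its known target genes were spread on both sides. Of these, 3 were lower, 3 higher and 2 not called, with a median log2 fold change of 0.06. That is 75.0% called, against 59.6% of all tested genes. Cdh17, a cadherin of the lateral membrane, rose by 1.32 ± 0.11 and Gucy2c, the receptor of guanylin, by 0.64 ± 0.11. Vil1 (villin, of microvilli) fell by 1.15 ± 0.12, and Sis (sucrase-isomaltase) by 4.36 ± 0.58 (-3.56 without PBS 2 and -4.96 without TNF 4). Lgals4 (-0.00 ± 0.13) and Muc13 (0.13 ± 0.16) were not called, and their sign changed when a library was left out (PBS 1, PBS 2 or TNF 2 for Lgals4, PBS 3 for Muc13), and for Muc13 also under total-count scaling.

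**Figure D4:**
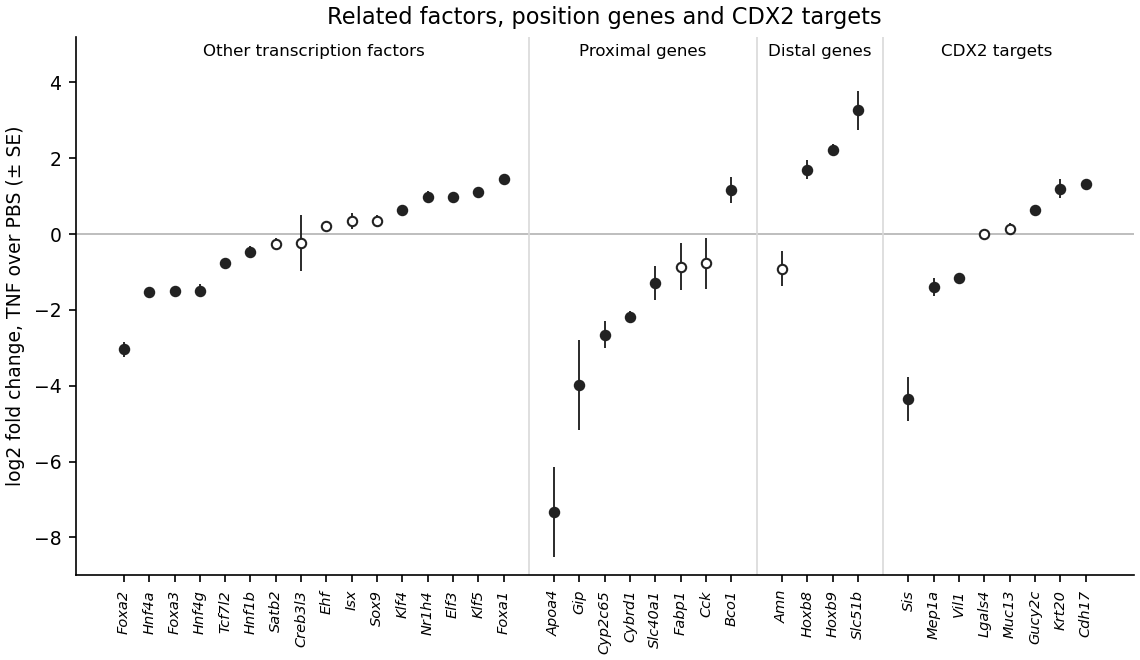
Log2 fold change of TNF over PBS with its SE, in the edgeR fit over all 7 libraries, for the tested genes of 4 lists (other intestinal transcription factors, proximal genes, distal genes and CDX2 targets). Filled points passed an adjusted p of 0.05 and open points did not; among the factors Foxa2 is lowest (-3.04) and Foxa1 highest (1.45), and 5 of the 8 proximal genes lie below 0 as filled points.

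Markers of other cell types were set beside the members. Of all tested genes, 59.6% were called, 30.1% lower and 29.5% higher. All 9 tuft cell markers fell, with a summed level of 1467 to 2408 CPM after PBS and 287.2 to 724.3 CPM after TNF. Of 6 tested enterocyte markers (of 10 listed), 5 fell and 1 rose, with sums of 525.9 to 675.8 and 108.5 to 133 CPM. The one that rose was Slc5a1 (0.46 ± 0.13). Stem cell markers fell in 7 of 8 cases (3597 to 4925 and 2035 to 2798 CPM). Among goblet cell markers 5 of 8 fell and 1 rose (7621 to 14400 and 6839 to 7457 CPM).

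Enteroendocrine markers were lower in 8 and higher in 1 of 12 tested cases (of 13 listed), while their summed level of 57.5 to 129.1 CPM after PBS and 59.2 to 90.5 CPM after TNF overlapped. The gene that rose was Tac1, a tachykinin precursor, with 44, 41 and 6 counts after PBS and 693, 604, 607 and 880 after TNF. Its mean level was 1.71 ± 1.25 CPM after PBS and 41.1 ± 11.3 CPM after TNF. At 32.5 to 57.6 CPM, Tac1 made up most of the enteroendocrine sum in every TNF library, so the overlap of the sums rests on it. Isl1 and Nkx2-2, homeodomain factors of enteroendocrine cells, had 45, 47 and 46 counts against 7, 1, 0 and 0, and 407, 410 and 432 counts against 7, 0, 8 and 9. Leukocyte markers (1 of 5 tested lower and 1 higher, of 9 listed) summed to 24.9 to 33.2 and 22.4 to 30.1 CPM, with Cd3e at 0. The higher leukocyte marker was S100a9, a calprotectin subunit of neutrophils, which had 0 counts in every PBS library and 103, 116, 60 and 120 after TNF, at least 105.7-fold higher, and its partner S100a8 had 0 counts after PBS and 10, 13, 4 and 5 after TNF. The lower one was Ptprc, the pan-leukocyte CD45 gene (-0.95 ± 0.33), a call that was lost without PBS 2 (-0.43), TNF 1 (-0.88), TNF 2 (-0.82) or TNF 4 (-0.91). The 9 stromal and endothelial markers (1 tested, Vwf, which rose) summed to at most 9.96 CPM in any library, with Col1a2 at 0. The part of these cell types in the members' values was not tested.

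Position on the chromosome was not used in choosing the members. Their 16 nearest tested protein-coding neighbours, other than members, held 8 called lower, 3 called higher and 5 not called. Over all tested genes, 59.6% were called, 30.1% lower and 29.5% higher. Beyond Cdx2, at 7.19 kb, Urad (an enzyme of urate breakdown) had 12, 13 and 15 counts after PBS and 0, 0, 2 and 0 after TNF, a ratio of 25.2 (95% exact binomial interval 6.53 to 214.9). Beyond Pdx1, at 158.4 kb, the RNA polymerase subunit gene Polr1d rose from 33.9 to 72.6 CPM (1.10 ± 0.14). Cdx2 thus lay between 2 genes that were near 0 counts after TNF, while its own counts overlapped between the groups.

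Genes on the other strand overlap 4 members, and since the use of strand in counting is not given in the sources used here, their reads and those of the member cannot be told apart where they overlap. Gata6os overlaps the start of Gata6 over 1692 bp, and it fell from 11.1 ± 1.39 CPM to 2.84 ± 1.26 CPM (-1.96 ± 0.30, edgeR adjusted p = 6.161e-05) while Gata6 overlapped between the groups. Plut overlaps Pdx1 over 1563 bp and fell with it, from 49 counts in all PBS libraries to 9 in all TNF libraries (-2.72 ± 0.78, and -3.43 without TNF 2). Gata5os overlaps Gata5 over 1860 bp and had 32 counts after PBS and 6 after TNF. Gm49390 overlaps Gata4 and had 0 counts in every library. Next to Gata5, at 35.2 kb, Rbbp8nl fell by 5.02 ± 0.44 on the log2 scale.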

How the data were processed

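Gene expression was measured by single-end RNA sequencing on an Element AVITI instrument in 3 PBS and 4 TNF libraries of sorted PCs. The authors deposited raw counts, as whole numbers of reads per gene, without normalization. The submitters' processing notes name FastQC, Trimmomatic 0.39, STAR 2.7.10a and DESeq2 and the builds mm10 and mm39, with no roles. Neither the counting program nor the annotation nor strand use was given in the sources used here. Whole counts of near-identical or overlapping genes depend on them. All columns were matched to samples by name.

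Symbols, exons and coordinates were taken by identifier from GENCODE M39 (GRCm39), in which 54749 identifiers (98.8%) were found, and promoter bases from RefSeq (GRCm38.p6). Differentially expressed genes (DEGs) came from edgeR 4.0.16 under R 4.3.3 (two-sided quasi-likelihood test, robust, with filterByExpr and TMM and without covariates), with Benjamini-Hochberg adjustment over 14329 genes and a threshold of 0.05. Values per library are CPM on TMM-scaled library sizes, and SE of log2 fold changes were derived from F and the change fitted by edgeR. Nearest profiles were ranked by the root mean square difference of log2(CPM + 0.5) from the PBS mean. Floors (3 counts over a group) and 95% Clopper-Pearson intervals reflect counting error alone, as no molecular identifiers are named. The scripts were tested on simulated data.

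The members and lists were chosen with earlier results of these data known, and 1 listed factor is not reported here. Named were all members, the 3 most abundant tested genes of a list, any tested gene of the lists of factors, position genes and CDX2 targets, neighbours, and the 3 nearest profiles of the most abundant lower and higher member. Listed genes with too few counts to be tested, Isl1, Nkx2-2, Clps, Pnliprp2, Habp2, Mmp7 and Defa22 were named after their values were seen. Alternatives were DESeq2 1.42.0, other scalings and filters, a stricter threshold, a replicate block, leaving out each library, another gene length and another added constant. Within each group, all pairs of libraries differed beyond sampling noise.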

Additional observations from a re-analysis of the deposited data

How the results depend on the processing

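The number of DEGs (genes at an adjusted p under 0.05) was 8543, and ran from 6933 (adjusted p under 0.01) to 9080 (no filter on low counts). With each library left out in turn it ran from 7663 to 8625. Members called numbered 5 or 6 and genes of the 13 lists called 60 to 80 under all alternatives, the sixth member being Cdx1 (without TNF 4 and in DESeq2). Among single genes, lists, levels and ratios, 1009 values kept their direction and their side of the threshold, 7 changed sign, 26 lost a call, 10 gained one and 18 moved beyond the spread or by over 1.5 times. Scaling by total counts shifted the median of all genes by -0.16 and gave 3142 higher and 4614 lower genes (40.5% higher, against 49.5% with TMM), and it turned the log2 fold changes of Gata6 (-0.0668), Cdx2 (-0.0807) and Muc13 (-0.0112). With a library left out, Lgals4 ran from -0.1265 to 0.1039 and Muc13 from -0.0235 to 0.3083. The cause of these turns was not tested.

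No label pairs the PBS and TNF libraries that share a number. Deviations from the group means of same-numbered libraries correlated at -0.299, -0.0314 and -0.174. Those of libraries with different numbers correlated between -0.205 and 0.35. With so few libraries these values cannot decide whether the numbers mark pairs. With the number as a replicate block (libraries 1 to 3 of each group), 7067 genes were called, 3437 higher and 3630 lower, with 5 members, 68 genes of the lists and 3 proximal genes among them. The proximal count was also 3 at an adjusted p under 0.01, and 8 distal genes were called with no filter. Leukocyte markers called numbered 2, or 4 without PBS 3 and 1 without TNF 1, TNF 2 or TNF 4, and enteroendocrine markers 9, or 5 at the stricter threshold. Gip was not called under the block (-4.26), in DESeq2 (-4.05), with no filter (-3.99) or at the stricter threshold. Bco1 (1.04), Mmp7 (0.76) and Ptprc (-0.86) were not called under the block. Low counts limit Pdx1, Onecut3 and the TNF values of Onecut2, where 1 count is 0.0654 CPM in TNF 4.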

Other observations

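TNF 1 was the TNF library with the highest level of Pdx1 (9 of the 14 counts after TNF), Onecut2 (73 of 108 counts) and Osr2 (10.2 CPM), and also of the genes Gip (96 counts against 0, 9 and 0), Isl1 (7 against 1, 0 and 0) and Gata6os (4.59 CPM against 2.59, 1.61 and 2.55). Of the enteroendocrine markers, Chga, Chgb, Neurod1, Nkx2-2, Sct and Tac1 were highest in TNF 4 instead, and the list summed to 90.5 CPM in TNF 4 and 68.1 CPM in TNF 1. The summed tuft cell markers were highest in TNF 1 (724.3 CPM) and lowest in TNF 4 (287.2 CPM), with 426.8 CPM in TNF 2 and 630.6 CPM in TNF 3. Gata4 was highest in TNF 4 (9.95 CPM) and Gata5 in TNF 3 (22.6 CPM). Without TNF 1 the log2 fold change of Isl1 was -6.57 in place of -4.38.

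Among the 11698 tested protein-coding genes whose mean reached 1 CPM, the profile over the 7 libraries nearest to that of Gata5 was that of Ttyh3, with a root mean square difference of 0.0790 on the log2(CPM + 0.5) scale, followed by Acaa2 (0.115) and Dynll2 (0.124). Their log2 fold changes were -1.64, -1.58 and -1.56. Nearest to Cdx1 were Cept1 (0.0459), E2f4 (0.0486) and Nudt3 (0.0513), with log2 fold changes of 0.27, 0.21 and 0.24. These genes were picked for their likeness over the same libraries, so their values are a description.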
